A study of Mus musculus with 4 samples.

Results

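Flvcr2 and 8 other genes that move iron and haem in and out of cells, store iron or make haem were followed in mouse breast cancer cells that carry or lack the kinase Pak1. The genes were Flvcr2 (named Mfsd7c on the array), Tfrc, Slc11a2, Slc40a1, Fth1, Ftl1, Ireb2, Alas1 and Fech. They were found by gene name: 13 probes named these 9 genes, of 39429 probes with 31896 different names. Flvcr2 was selected on its difference between these same arrays, which was among the largest decreases, and the other genes were chosen by role with earlier results of the arrays known. Their differences are therefore given as a description, with no p-value, and which of them the fit over all probes called is stated without drawing support from it.

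The cells came from breast tumours of MMTV-Neu mice, whose Neu (Her2) oncogene is expressed from the promoter of the mouse mammary tumour virus. There were 2 arrays labelled Pak1-/- and 2 labelled Pak1+/+. All cells were grown in low calcium medium with 5% horse serum, deprived of serum for 3 h and given EGF for 15 min, so no unstimulated state was measured. The design text puts 2 different tumours behind each group, and the methods call the cells tumour-derived lines. On the slide, positions 1 and 2 held the arrays labelled Pak1-/- and positions 3 and 4 the others, and an effect of position cannot be told apart from one of genotype.

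Iron reaches most cells bound to transferrin, which the receptor Tfrc carries into endosomes. The transporter Slc11a2 (DMT1) moves iron on into the cytosol. Surplus iron is stored in ferritin shells of Fth1 and Ftl1 subunits or leaves through the exporter Slc40a1 (ferroportin). Iron regulatory proteins, of which Ireb2 is one, bind iron-responsive elements in the messenger RNAs of these genes: when iron is scarce they stabilise Tfrc messenger and hold back translation of ferritin. Part of the iron goes to mitochondria, where Alas1 opens haem synthesis and Fech closes it by inserting iron. Flvcr2 is a membrane transporter related to the haem exporter Flvcr1, and has been described as a carrier of haem and of choline.

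An array reads each gene through 60-base probes, and the Flvcr2 value rests on 1 of them. The probes of Flvcr2 and Tfrc are shown because these genes differ most of the 9, and those of Slc11a2 because it is read through 2 probes of unequal difference. They are given 5′ to 3′ as in the scanner files, in lower case and with no base marked, as the first 30 of the 60 bases.
Flvcr2, A_51_P386899: tggagggagtgttagggatggaagagatgc
Tfrc, A_52_P228236: tgagcaagatcacattaacaaagactagtt
Tfrc, A_65_P06446: tcctgctagatggaacatagattcttcatg
Tfrc, A_51_P167876: atctctatatagagacagcaattggattag
Slc11a2, A_51_P388737: tgctttaatcccaaccagaaataatcatcc
Slc11a2, A_52_P254298: gagactctgaggagcccttcaccacctact

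In the coordinates of the files (mm9) the Flvcr2 probe lies on chromosome 12, 87154338 to 87154397. The Tfrc probes lie on chromosome 16 at 32632255 to 32632314 (A_52_P228236), 32620470 to 32620529 (A_65_P06446) and 32624877 to 32625093 (A_51_P167876). The last of these spans more than its 60 bases, so it joins separate stretches of the genome. The Slc11a2 probes lie on chromosome 15 at 100218333 to 100218392 (A_51_P388737) and 100240516 to 100240575 (A_52_P254298), and the Ireb2 probe on chromosome 9 at 54756566 to 54756625. The other probes were those of Slc40a1 (chromosome 1, 45965255 to 45965314), Fth1 (chromosome 19, 10059485 to 10059544), Ftl1 (chromosome 7, 52713309 to 52713368), Alas1 (chromosome 9, 106136284 to 106136343 and 106135796 to 106135855) and Fech (chromosome 18, 64616928 to 64616987). The files themselves do not say which exon or untranslated part a probe covers. The loop of the iron-responsive element was searched as CAGTGN on the transcribed strand, with Fech left out of the search. It was in none of the first 50 transcribed bases of the 9 RefSeq start windows (GRCm38.p6) found for 6 of the 9 genes. Of 32851 such windows 7.08% held it. These letters can lie further into a transcript, so nothing follows for the element itself.

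The median spot intensity was 322 to 331 over a median local background of 39.0 to 42.0, and 62.2% to 70.4% of probes were well above background, that is, the scanner software called most of their spots clearly brighter than their surroundings. The replicate arrays correlated with r = 0.997 in each group and arrays of different groups with r = 0.954 to 0.959 across probes, which are not independent replicates. The probe named Pak1 read 12.21 and 12.25 (normalized log2 intensity, the scale of every level below) in the group labelled Pak1-/-, against 12.04 on both arrays of the other. It was thus not lower where the labels say that the gene is missing (difference 0.19, SE 0.07, adjusted p = 0.070 in limma), and whether it lies in the deleted part is not given in the sources used here. Every direction below is that of the labels. Of 8 luminal epithelial markers 7 were well above background on all 4 arrays. The exception was Krt19, on 3 arrays. Of 7 fibroblast markers, Col1a1, Col1a2 and Pdgfra were well above background on all 4 arrays, and Col3a1, Dcn, Lum and Pdgfrb on none. Col1a1 read 9.31 and 8.88 with the label Pak1-/-, against 8.03 and 7.93 (adjusted p = 0.0051 in limma). Col1a2 read 7.48 and 7.39 against 7.35 and 7.47 and did not pass (adjusted p = 0.82 in limma). Pdgfra read lower, 8.29 and 8.13 against 8.42 and 8.32, and did not pass either (adjusted p = 0.20 in limma). The 7 summed on the linear scale gave 1446 and 1295 against 1142 and 1074, and the higher sum came from Col1a1.

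Over the whole array 51.9% of the 27229 probes tested differed between the groups at an adjusted p under 0.05 in limma: 23.3% stood higher where the label was Pak1-/-, and 28.6% stood lower. Groups that did not overlap were found for 78.2% of the probes with 4 values. Against this background, 3 of the 9 genes were called higher (Slc11a2, Slc40a1 and Ftl1), 4 were called lower (Flvcr2, Tfrc, Fth1 and Fech) and Ireb2 and Alas1 were not called. Of the 9, 8 had groups that did not overlap. Nothing is read from these counts, because the genes were picked with this contrast known. The median difference of the 9 genes was 0.02 and that of all probes tested was -0.05. Each of the 9 was well above background on every array.

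**Figure D1:**
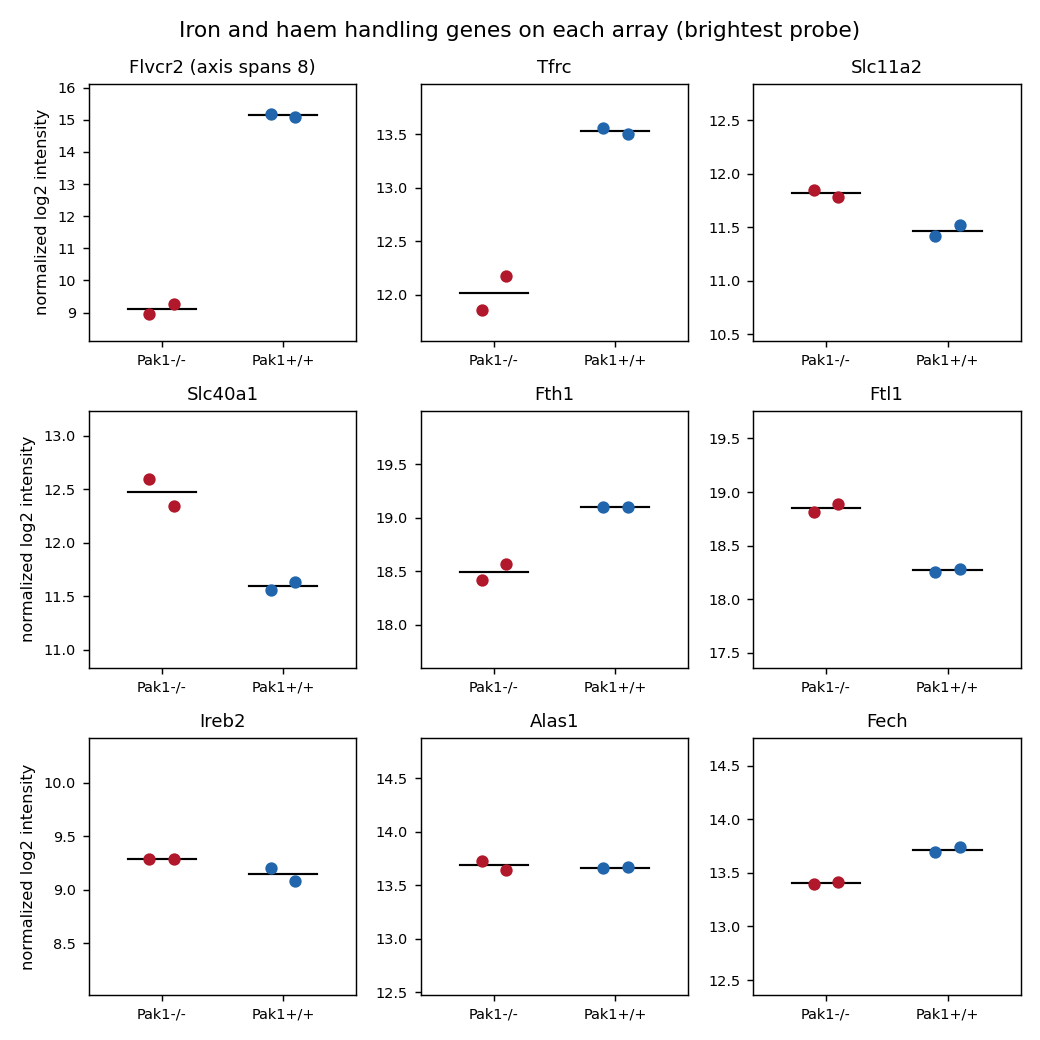
Normalized log2 intensity (vertical axis) of the brightest probe of each gene on the 2 arrays labelled Pak1-/- (red) and the 2 labelled Pak1+/+ (blue). Points are single arrays and lines are group means, and every axis spans the same range except that of Flvcr2, which spans 8 units. The groups overlap only for Alas1. Flvcr2 is lower by 6.03 in the arrays labelled Pak1-/-, and both Fth1 points labelled Pak1+/+ are saturated.

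Of the 9 genes Flvcr2 differed most. Arrays labelled Pak1-/- read 8.95 and 9.28, whereas arrays labelled Pak1+/+ read 15.19 and 15.09. Replicates lay close together in each group, and the probe was well above background and unsaturated on all 4 arrays. The means were 9.12 ± 0.23 and 15.14 ± 0.07 (SD, n = 2 each), a difference of -6.03 (SE 0.13), so that the signal was 65.2-fold lower in the arrays labelled Pak1-/-. Among the 27229 probes tested this was the 8th lowest difference. Over 12 alternatives, which change a processing step or leave out 1 array, it ran from -6.28 to -5.86. The offset added to each intensity makes the fold an underestimate, and 1 probe cannot show whether the whole transcript follows.

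The genes whose 4 values ran most like those of Flvcr2, by Euclidean distance after each was centred on its own mean, were Mtus2 (distance 0.17), Kcne3 (0.31), Evc2 (0.37), Klk14 (0.46) and Sema3b (0.58). They were picked for likeness over 4 arrays, so their values describe them only. The distances of Mtus2 and Evc2 rest in part on readings at background. Mtus2 passed the filter only through the group where it is high. It was not well above background on the arrays labelled Pak1-/- (6.17 and 6.30, against 12.32 and 12.33), so it was at least 52.2-fold lower there. Kcne3, a potassium channel subunit, read 8.89 and 9.19 against 14.97 and 14.64. Klk14, a secreted protease, and Sema3b, a guidance protein, differed by -6.23 and -5.45. Evc2, a protein of the primary cilium, was well above background on 1 of the arrays labelled Pak1-/-, so its measured difference of -5.96 is limited by background. None of the 5 is known for handling iron or haem.

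The genes around Flvcr2 were used to see how far along the chromosome its difference extended, which the choice of genes did not use. Erg28, a sterol synthesis gene named 0610007P14Rik on the array, has its probe 2.11 kb to the right. It read 14.89 and 14.90 in the group labelled Pak1-/-, against 15.76 and 15.79, and so fell by 0.87 (SE 0.07, adjusted p = 0.00094 in limma). On the left the nearest tested probe was that of Gm3649, 150.5 kb away, with a difference of 0.21 (SE 0.07) that did not pass (adjusted p = 0.058) and that was -0.12 with the processed signal scaled to the 75th percentile. As processed here, no neighbour within 500 kb differed by as much as 2-fold past the threshold, but some alternatives took Fos and Ttll5 beyond it.

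Further out, Fos, an immediate early gene that EGF induces, lay 336.4 kb to the left and was higher by 0.98 (SE 0.20, adjusted p = 0.015 in limma). It read 15.53 and 14.97 in the group labelled Pak1-/-, against 14.32 and 14.23. Its difference ran from 0.69 without Pak1-/- replicate 1 to 1.26 without Pak1-/- replicate 2, and was 1.02 without Pak1+/+ replicate 1, 1.08 under cyclic loess and 0.91 with the processed signal. Ttll5, a tubulin-modifying enzyme, was higher by 0.97 with its brightest probe (adjusted p = 0.00071, and a difference of 1.09 under cyclic loess) and lower with its other probe (difference -0.49, adjusted p = 0.014), so its direction is uncertain. Tgfb3, a growth factor of the TGF-beta family, was lower (difference -0.56, adjusted p = 0.017, and 0.069 without Pak1+/+ replicate 1). These 3 neighbours were named after their values were seen. The median difference over the 1002 tested probes of chromosome 12 was -0.26, against -0.05 over all chromosomes.

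**Figure D2:**
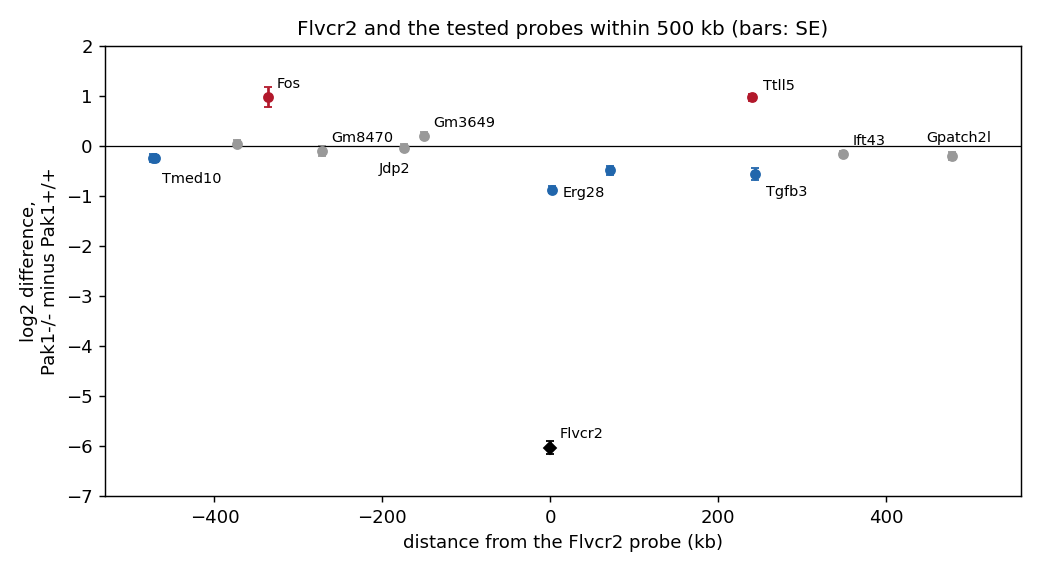
Log2 difference (arrays labelled Pak1-/- minus Pak1+/+, vertical axis, bars SE) of the tested probes within 500 kb of the Flvcr2 probe, by distance in kb (horizontal axis). Red probes were higher and blue probes lower at an adjusted p under 0.05, grey probes did not pass, and the black diamond is Flvcr2. Flvcr2 lies at -6.03, while Erg28, 2.11 kb away, lies at -0.87 and the other tested probes lie between -0.56 and 0.98.

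Of the uptake genes, Tfrc was lower in the arrays labelled Pak1-/- with each of its 3 probes. Its brightest probe (A_52_P228236) read 11.85 and 12.18 there, whereas arrays labelled Pak1+/+ gave 13.56 and 13.50. The means were 12.02 ± 0.23 and 13.53 ± 0.04 (SD, n = 2 each), a difference of -1.51 (SE 0.13), or 2.85-fold lower. This probe is printed 10 times on each array, and the SD over the 9 or 10 spots used was 0.07 to 0.15, a technical spread within an array.

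The other Tfrc probes differed by less. A_65_P06446 read 10.99 and 11.10 against 11.65 and 11.88, a difference of -0.72 (SE 0.11). A_51_P167876, the probe that joins separate stretches, read 7.88 and 7.98 against 8.64 and 8.84, a difference of -0.81 (SE 0.10). In none of the 3 did the groups overlap. The probe with the larger difference is the one furthest downstream, and the mean over the 3 probes was -1.01. Among the 27229 probes tested, the brightest Tfrc probe had the 649th lowest difference.

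Proliferation genes moved the same way as Tfrc. All 15 of a list (Mki67, Top2a, Pcna, Mcm2 and others) read lower on both arrays labelled Pak1-/-, and 14 of them passed, where over the whole array 28.6% of probes were called lower and 78.2% had groups that did not overlap. Plk1 did not (difference -0.48, adjusted p = 0.0501). Their median difference was -0.87. Summed on the linear scale they gave 313466 and 333758 with the label Pak1-/-, against 656064 and 626689. Their part in the Tfrc result was not tested.

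Slc11a2 went the other way by a small amount. Its brightest probe (A_51_P388737) read 11.85 and 11.78 in the group labelled Pak1-/-, against 11.42 and 11.52, a difference of 0.35 (SE 0.08), or 1.27-fold. Its other probe read 9.45 and 9.43 against 9.15 and 9.30, a difference of 0.21 (SE 0.08). The groups did not overlap for either probe. The brightest probe kept its call in 9 of the 12 alternatives, and lost it without Pak1-/- replicate 1 (0.32) and without Pak1+/+ replicate 1 (0.30) or 2 (0.40).

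**Figure D3:**
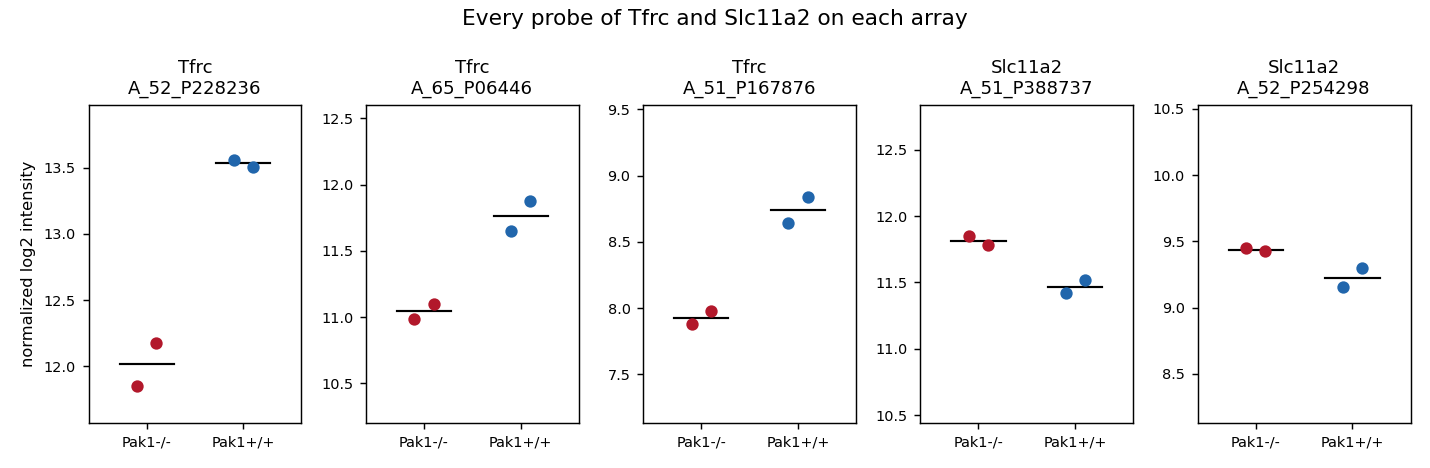
Normalized log2 intensity (vertical axis, each spanning the same range) of the 3 Tfrc probes and the 2 Slc11a2 probes on each array labelled Pak1-/- (red) and Pak1+/+ (blue), with lines at the group means. Each Tfrc probe is lower in the arrays labelled Pak1-/-, by 1.51, 0.72 and 0.81 log2, and each Slc11a2 probe is higher, by 0.35 and 0.21.

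The exporter Slc40a1 was higher in the arrays labelled Pak1-/-. It read 12.60 and 12.34 there, against 11.56 and 11.63. The means were 12.47 ± 0.18 and 11.60 ± 0.06 (SD, n = 2 each), a difference of 0.88 (SE 0.11), or 1.84-fold, and the groups lay apart. Macrophages also make this exporter. Of 8 macrophage markers, 6 were well above background on both arrays labelled Pak1-/- and 5 on both others. Tyrobp was not above background on any array and Cd163 on 1 only. The summed linear intensity of the 8 was 71733 and 49260 against 45739 and 40795, most of it from Itgam (16.07 and 15.51 against 15.39 and 15.20, adjusted p = 0.11 in limma). Ptprc, which marks all leukocytes, read 7.15 and 7.14 against 7.59 and 7.60 (adjusted p = 0.0056). Adgre1 was also lower (7.47 and 7.48 against 8.44 and 8.60, adjusted p = 0.0011). Mrc1 was well above background on the arrays labelled Pak1-/- alone, where it read 6.86 and 7.62, against 6.14 and 6.30, and it entered the test only through that group. Their part in the Slc40a1 result was not tested.

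The ferritin subunits differed in opposite directions. Fth1, the heavy chain that oxidises iron, read 18.42 and 18.57 in the group labelled Pak1-/-, against 19.10 on both arrays of the other. On the arrays labelled Pak1+/+ the spot was saturated, so that only a bound can be given: Fth1 was at least 1.52-fold lower in the arrays labelled Pak1-/- as processed here, and at least 1.36-fold lower under cyclic loess. Ftl1, the light chain, was not saturated on any array. It read 18.82 and 18.88 against 18.25 and 18.28, a difference of 0.58 (SE 0.07). Neither pair of groups overlapped.

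The ferritin values lie near the top of the scanner's range. Over the alternatives the measured difference of Fth1, which saturation makes a bound, ran from -0.80 to -0.45, and that of Ftl1 from 0.31 to 0.65. Ftl1 was not called with the processed signal scaled to the 75th percentile (0.31). Both genes have processed pseudogene copies, and whether these probes also bind such transcripts was not tested. Ferritin is controlled mainly at translation, which an RNA array does not measure.

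Ireb2, the iron regulatory protein that is degraded when iron is plentiful, read 9.29 on both arrays labelled Pak1-/- and 9.21 and 9.09 on the others. The difference was 0.14 (SE 0.08), and the groups did not overlap, but the gap between them was narrower than that between the arrays labelled Pak1+/+. It was not called in any of the 12 alternatives.

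The enzymes at the ends of haem synthesis differed little. Alas1, the first and rate-limiting enzyme, read 13.72 and 13.65 in the group labelled Pak1-/-, against 13.66 on both arrays of the other, and the groups overlapped. The difference was 0.02 (SE 0.07) with this probe and 0.11 (SE 0.11) with its other probe, which read 10.62 and 10.35 against 10.37 and 10.38. The sign of the first changed over the alternatives (-0.02 to 0.11). Fech, the last enzyme, read 13.40 and 13.41 against 13.69 and 13.74. The means were 13.40 ± 0.01 and 13.72 ± 0.03 (SD, n = 2 each), a difference of -0.31 (SE 0.07), and it kept its call in 7 of the 12 alternatives. The call was lost whichever array was left out (-0.34 to -0.29), and under cyclic loess (-0.22).

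The other genes of iron and haem handling were listed by role, not by how they moved, though with earlier results of these arrays known. All 56 had a probe, and 49 were tested. Of these 9 rose and 21 fell in the arrays labelled Pak1-/- in limma, and 19 did not pass. The 19 include Lcn2, which was saturated on every array and so could not pass. The 30 called are 61.2% of the 49, against 51.9% of all probes, and the median difference of the 49 was -0.18, against -0.05 over all probes. The count of rising genes was 5 without Pak1+/+ replicate 1 and 5 without the filter on dim probes. Under cyclic loess 12 rose and 19 fell. Not tested, because they were well above background on fewer than 2 arrays, were Tfr2, Cybrd1, Hephl1, Hamp, Hfe2, Ftmt and Alas2.

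**Figure D4:**
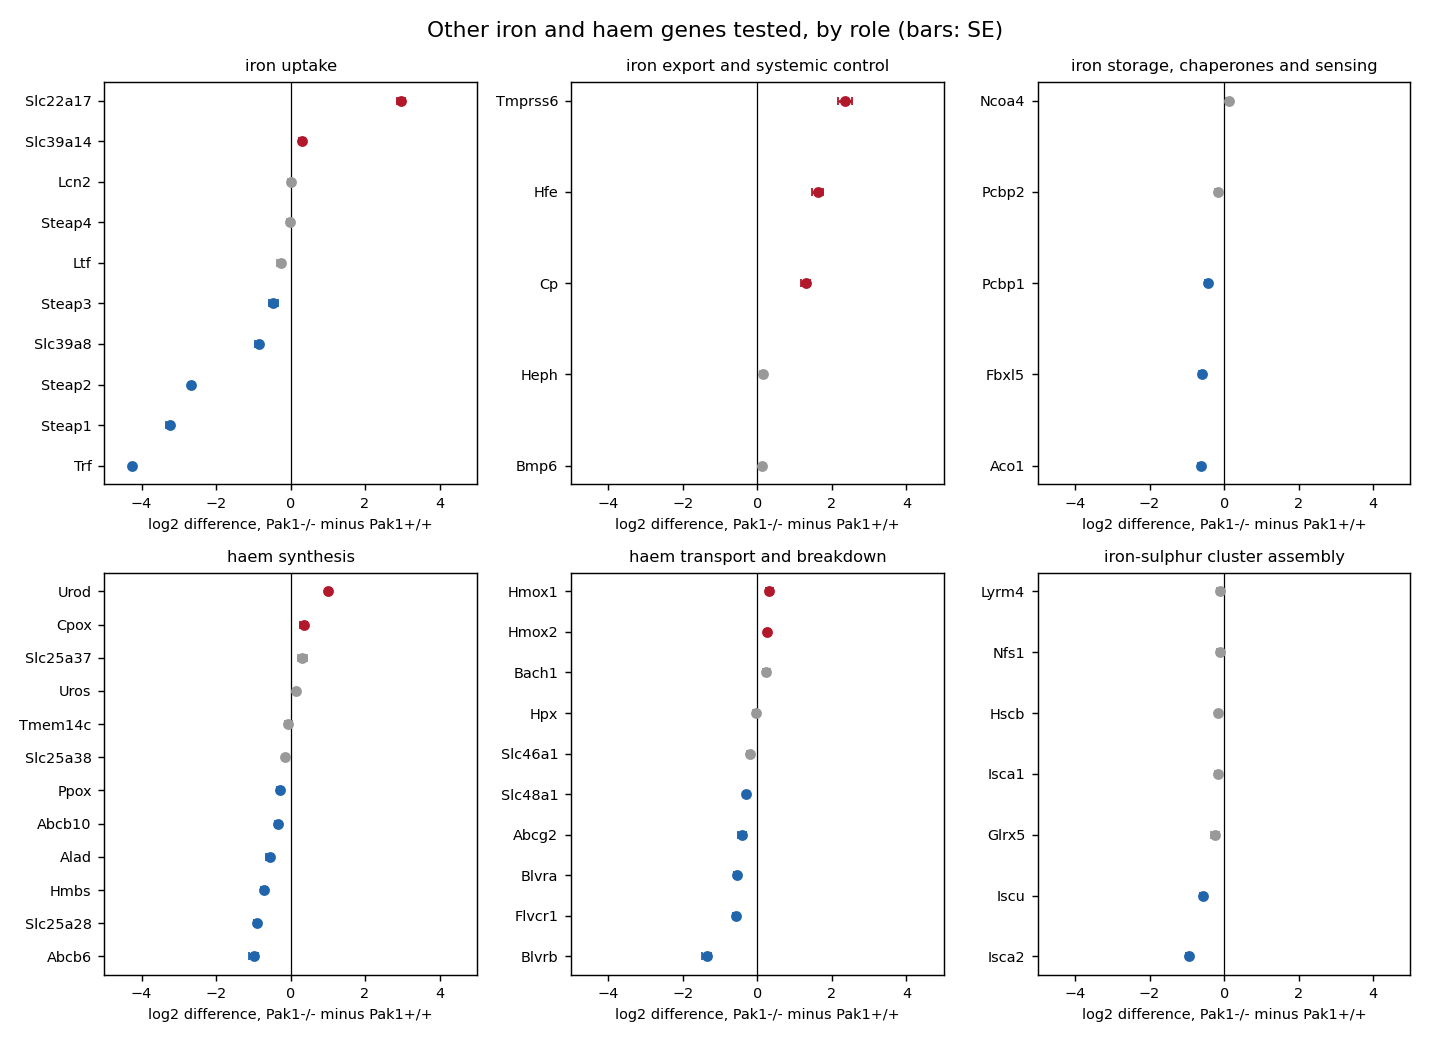
Log2 difference (arrays labelled Pak1-/- minus Pak1+/+, horizontal axis, bars SE) of the 49 other iron and haem genes tested, 1 panel for each role. Red genes rose and blue genes fell at an adjusted p under 0.05, and grey genes did not pass. Trf (-4.25), Steap1 (-3.24) and Steap2 (-2.67) lie furthest to the left and Slc22a17 (2.97) furthest to the right.

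Among 10 iron uptake genes tested, 5 fell and 2 rose. Here and in the roles that follow, the share called over all probes is 51.9% (23.3% higher and 28.6% lower), and nothing particular to a role is read from its count. Trf, the transferrin that feeds Tfrc, read 14.29 and 14.19 in the group labelled Pak1-/-, against 18.51 and 18.47. It fell by 4.25 log2 (SE 0.08, adjusted p = 4.5e-05), or 18.98-fold, and its other probe fell by 4.67. Steap1, of a family of metal reductases, read 9.39 and 9.45 against 12.58 and 12.74 and fell by 3.24 (SE 0.09, adjusted p = 8.7e-05). Slc22a17, a receptor for lipocalin 2, read 13.51 and 13.25 against 10.46 and 10.37 and rose by 2.97 (SE 0.11, adjusted p = 0.00017). Steap2 also fell (-2.67), while Steap4 had a difference of -0.02. Lcn2, lipocalin 2 itself, was saturated on all 4 arrays, so no fold is given. It is counted among the 10 and did not pass, but saturation left its test unable to show a difference.

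Among 5 genes of iron export and systemic control tested, 3 rose and 0 fell in limma (0 also at an unadjusted p under 0.05), against 23.3% higher and 28.6% lower over all probes. Heph and Bmp6 had differences of 0.15 and 0.13 that did not pass. Each was well above background on only 1 of the arrays labelled Pak1+/+, so closeness to background limits these differences. Cp, the ferroxidase ceruloplasmin that works with Slc40a1, read 18.39 and 18.13 in the group labelled Pak1-/-, against 16.89 and 17.05. It rose by 1.29 (SE 0.12, adjusted p = 0.0015), or 2.45-fold, and its other, dimmer probe rose by 3.97 (SE 0.13, adjusted p = 0.00013), so the size depends on the probe. Hfe, which binds the transferrin receptor and is altered in haemochromatosis, read 10.74 and 10.53 against 9.17 and 8.87 and rose by 1.61 (SE 0.14, adjusted p = 0.0012). Tmprss6, a protease that restrains hepcidin, was not well above background on the arrays labelled Pak1+/+ and was at least 3.96-fold higher on the others. It entered the test only through the group where it is high, so its place among the 3 lends the count no support. Hamp, which encodes hepcidin, was above background on no array.

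Among 5 genes of iron storage, chaperoning and sensing tested, 3 fell and 0 rose in limma (0 also at an unadjusted p under 0.05). The 3 called are 60% of the 5, near the 51.9% over all probes. Aco1, the other iron regulatory protein, read 9.37 and 9.53 against 10.04 and 10.12 and fell by 0.63 (SE 0.09, adjusted p = 0.0047). Fbxl5, the iron-sensing subunit that marks Ireb2 protein for degradation, fell by 0.59 (SE 0.08, adjusted p = 0.0039). Its dimmer probe had a difference of -0.21 (adjusted p = 0.065). Pcbp1, a chaperone that delivers iron to ferritin, fell by 0.45 (SE 0.07, adjusted p = 0.0064). Ncoa4, the receptor for ferritin breakdown, and Pcbp2 did not pass, with differences of 0.12 and -0.16.

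Among 12 haem synthesis genes tested, 6 fell and 2 rose. Urod, the fifth enzyme of the pathway, read 14.47 and 14.49 in the group labelled Pak1-/-, against 13.47 on both arrays of the other, and rose by 1.01 (SE 0.07, adjusted p = 0.00064), or 2.01-fold. Abcb6, a porphyrin transporter, fell by 0.99 (SE 0.12, adjusted p = 0.0032). Slc25a28, the mitochondrial iron importer mitoferrin 2, fell by 0.91 (SE 0.07, adjusted p = 0.00094). Alas2, the erythroid form of the first enzyme, was above background on no array. Of 6 erythroid markers, Hba-a1, Epor and Slc4a1 were well above background on all 4 arrays, Klf1 on 3, and Hbb-b1 and Gata1 on none. Epor, the erythropoietin receptor, read 7.66 and 7.57 against 8.81 and 8.78 and fell by 1.18 (SE 0.07, adjusted p = 0.00057). Hba-a1 went the other way, 8.22 and 7.99 against 7.87 and 7.72, and did not pass (difference 0.31, adjusted p = 0.077 in limma). Klf1 and Slc4a1 did not pass either, with differences of -0.07 and -0.05. Summed on the linear scale, the 6 gave 1104 and 1005 with the label Pak1-/-, against 1278 and 1252, and the lower sum came from Epor.

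Among 10 genes of haem transport and breakdown, 5 fell and 2 rose. Flvcr1 (Mfsd7b on the array), the haem exporter related to Flvcr2, read 10.77 and 10.72 in the group labelled Pak1-/-, against 11.38 and 11.24. It fell by 0.57 (SE 0.08, adjusted p = 0.0053), or 1.48-fold. Whether its difference and that of Flvcr2 are unequal was not tested. Blvrb and Blvra, the biliverdin reductases, fell by 1.36 (SE 0.11, adjusted p = 0.0011) and 0.54 (SE 0.08, adjusted p = 0.0050), and the other Blvra probe also fell by 0.54. Hmox1, the inducible haem oxygenase, read 12.58 and 12.77 against 12.34 and 12.35, higher by 0.32 (SE 0.09, adjusted p = 0.038). This call is weak. It held in 4 of the 12 alternatives (adjusted p 0.018 to 0.24), was lost without Pak1-/- replicate 2 and without either Pak1+/+ replicate, and the other Hmox1 probe had a difference of -0.08 (adjusted p = 0.38).

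Among 7 genes of iron-sulphur cluster assembly, 2 fell and 0 rose in limma (0 also at an unadjusted p under 0.05). The 2 called are 28.6% of the 7, below the 51.9% over all probes. The 5 others did not pass (differences of -0.26 to -0.10). Isca2, a late-acting assembly protein, read 12.25 and 12.23 in the group labelled Pak1-/-, against 13.25 and 13.12, and fell by 0.95 (SE 0.08, adjusted p = 0.0011). Iscu, the scaffold on which the clusters are built, read 13.28 and 13.35 against 13.86 and 13.91 and fell by 0.57 (SE 0.07, adjusted p = 0.0034).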

How the data were processed

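Total RNA was labelled with Cy3 and hybridised to 4 single-colour Agilent mouse arrays on 1 slide, read in 1 scan. Per the file headers, each deposited file is the scanner output of 1 array from Feature Extraction (version 9.5 in the submitters' processing notes), with linear intensities: spot means, local background medians and processed signals, not normalized between arrays, with probe positions on mm9. A further deposited table gives the authors' own log2 values, normexp corrected and quantile normalized according to their methods, with the offset not stated.

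The values here were computed from the scanner files with limma 3.58.1 (R 4.3.3): normexp with an offset of 50 on all spots, log2, quantile normalization of the 43020 non-control spots, removal of outlier-flagged spots and averaging per probe. The 27229 of 39429 probes that at least 2 arrays showed well above background were tested two-sided with lmFit and eBayes, with no term but genotype and with Benjamini-Hochberg adjustment at 0.05. An exact permutation test of 2 arrays against 2 cannot go below p = 0.333, so none was used. The number of arrays limits the precision. P-values measure the spread between the samples of a group. The design text says that these came from different tumours.

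The brightest probe over the 4 arrays stood for a gene. A probe dim or saturated on every array of a group has only a bound: the mean of the brighter group over that of the dimmer one, where a dim array counts no lower than the dimmest probe that is well above background on it. Names came from the files or, for 26055 of 32334 probes with an accession, from RefSeq (GRCm38.p6). The members, lists and rules were chosen with earlier results of these data known. Named from the lists, besides Flvcr1, Hmox1, Aco1 and Alas2, were the 3 largest differences per role among genes past the threshold and above background on all arrays. Others named were singled out after their values were seen. Marker lists covered luminal, macrophage, erythroid, endothelial, fibroblast and proliferation genes. Of 7 endothelial markers, 0 passed in limma (4 tested, of which 0 had an unadjusted p under 0.05). The fit was tested on simulated data with known changes. Alternatives were other offsets, normalizations, filters, leave-one-out fits, a replicate block, the authors' log2 table and the mean over probes. Human samples of the study were not analysed here, and 3 genes of the lists are not reported here.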

Additional observations from a re-analysis of the deposited data

How the results depend on the processing

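Flvcr2 was lower in each of the 12 alternatives, which reuse the arrays it was chosen on and so lend its difference no support. The difference was -6.28 with the processed signal scaled to the 75th percentile, and -6.19 to -5.86 in leave-one-out fits, where the lone sample of a group is taken to vary like the other group. Counts of members called were 2 to 3 higher and 3 to 4 lower. Of the other members, Tfrc and Slc40a1 kept their calls in all 12, Fth1, saturated in 1 group, in all 11 that gave a value, Ftl1 in 11, Slc11a2 in 9 and Fech in 7. Genes of the wider list that rose numbered 9, but 5 with no filter on dim probes, where the adjustment covers all 39429 probes, and 12 under cyclic loess, where 19 fell. In leave-one-out fits 5 to 6 of them rose and 16 to 19 fell. With an adjusted p under 0.01, a stricter threshold, 8878 probes passed over the whole array in place of 14132, and 10314 to 12172 in leave-one-out fits at 0.05. Under cyclic loess 52.4% of the called probes were higher, against 44.9%.

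The labels tie no number to a shared tumour or day, and the differences between replicates had a correlation of -0.03 between groups, across probes. With the replicate block 13202 probes passed, with 3 members higher and 4 lower, and 6 wider list genes rose and 20 fell.

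Among neighbours that had not passed, Jdp2 changed sign under cyclic loess (0.066) and Gm3649 with the processed signal (-0.12). The cause was not tested. Of the other values of the single genes tested, 302 kept their direction and their side of the threshold, 18 lost it (9 of Tmed10, a neighbour, 8 of Hmox1 and 1 of Tgfb3) and 2 gained it (both of Gm3649). Of the values of the 8 members beside Flvcr2, 86 moved by less than the replicate spread and 9 by more, whatever their calls. Saturation limits Fth1 and Lcn2, and closeness to background limits Tmprss6, Heph, Bmp6 and the 7 genes not tested.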
